A study of Atriplex prostrata and Atriplex rosea and Atriplex prostrata x Atriplex rosea with 87 samples.

Results

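Genes of ammonium assimilation and asparagine synthesis were followed along leaf development in a C3 and a C4 species of Atriplex. For this, 10 Arabidopsis loci were named by their identifiers, of which 6 were in the count table of 21971 loci and all 6 passed the filter on low counts: GS2 (AT5G35630), GLN1;2 (AT1G66200), GLU1 (AT5G04140), GLT1 (AT5G53460), DIT1 (AT5G12860) and ASN1 (AT3G47340). The other 4 of the 10, GLN1;1, GLN1;3, DIT2.1 and ASN2, are not analysed here.

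Ammonium in leaves comes from nitrate reduction and, in light, from the glycine decarboxylase step of photorespiration. Glutamine synthetase binds it to glutamate, and glutamate synthase moves the amide group of the resulting glutamine onto 2-oxoglutarate. In Arabidopsis GS2 is the plastid glutamine synthetase and GLN1;2 a cytosolic one, GLU1 is the main ferredoxin-dependent glutamate synthase of leaves and GLT1 the NADH-dependent one. DIT1 brings 2-oxoglutarate into the plastid in exchange for malate, and asparagine synthetase (ASN1) transfers the amide group of glutamine to aspartate, which makes asparagine, a form in which nitrogen is stored and exported. C4 leaves fix carbon first in the mesophyll and release it in the bundle sheath, where photorespiration is low.

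Leaves of the C3 species Atriplex prostrata and the C4 species Atriplex rosea were used, and the labels name no mutation, transgene or treatment. The growth chambers were kept at 27 °C in the light and 22 °C in the dark, and the light, 500 µmol photons per square metre and second, lasted 17 h a day. Leaves were taken 2 h after the lights came on. Each species had 8 groups of 3 libraries: whole leaves of 1 mm (leaf plastochron index -1.3), 5 mm (index -0.7) and 7.5 mm (index -0.35, leaf 9 and leaf 10 separately), and the bottom and top parts of older leaves, which were divided once longer than 10 mm. The divided leaves were 15 mm long in prostrata and 11 mm in rosea at index 0.3, and 18 mm and 13 mm at index 0.8. The index is a developmental age computed from leaf lengths, and groups of the same index were compared between the species. The hybrid libraries of the series and the leaves at index 1.5 are not analysed here.

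The 24 prostrata libraries held 8028511 to 12387428 counts and the 24 rosea libraries 7647689 to 15360702. All counts are reads assigned to loci of Arabidopsis, so a difference in sequence match between the species cannot be told apart from a difference in level, and neither can fewer cells of a type and less RNA per cell in these whole tissues. Nor do the labels say which libraries shared a lane, so lane and group cannot be told apart. The bottom and top libraries numbered 1 of the 15 mm prostrata leaves were almost the same: their chi-square per degree of freedom was 1.14, the lowest of all pairs, where libraries of the same group had a median of 15.2. The values of that stage that moved most are given with and without both. The 3 prostrata libraries of 1 mm leaves were also close, at 1.2, 1.93 and 2.18, so the age changes of prostrata start from replicates near counting noise. Same-numbered columns of leaf 9 and leaf 10 in prostrata gave 1.8, 2.18 and 3.1, and the columns numbered 2 of these leaves in rosea gave 2.84. Leaf 9 and leaf 10 enter below as separate stages, and their libraries may not be independent. Of the leaf markers, the summed level of RBCS1A, RCA, LHCA1 and PRK (Rubisco small subunit, Rubisco activase, a photosystem antenna protein and phosphoribulokinase) ran from 3760 to 103000 CPM in prostrata and from 4250 to 39900 CPM in rosea, with no marker at 0 in any group. RBCS1A weighs most in this sum, with a highest group mean of 63300 CPM in prostrata and 14600 CPM in rosea. For RCA these were 15600 and 7300 CPM. LHCA1 went the other way, with 4610 and 7350 CPM, and PRK had 2770 CPM in both species. CPM is the count relative to the scaled library total, a level that is not divided by gene length.

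DIT1 was the member that differed between the species at every age, and ASN1 the one whose difference grew as leaves aged. In rosea ASN1 went together with ASN3, another asparagine synthetase locus, and may share reads with it, as described below. Averaged over the 8 stages, rosea was 3.08-fold higher than prostrata for DIT1 and 3.31-fold higher for ASN1. GLU1, GS2 and GLN1;2 were higher by less than 2-fold, and GLT1 gave no difference past the test. A locus counts as called here at a Benjamini-Hochberg adjusted p under 0.05 over all 14779 loci tested (edgeR's quasi-likelihood F test) and a change of at least 1 on the log2 scale. By that rule 2 of the 6 members were called over the stages, both higher, where 19.9% of all loci tested were called, 9.61% higher and 10.3% lower. The median log2 fold change was 0.589 over the 6 members and -0.021 over all loci tested.

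**Figure D1:**
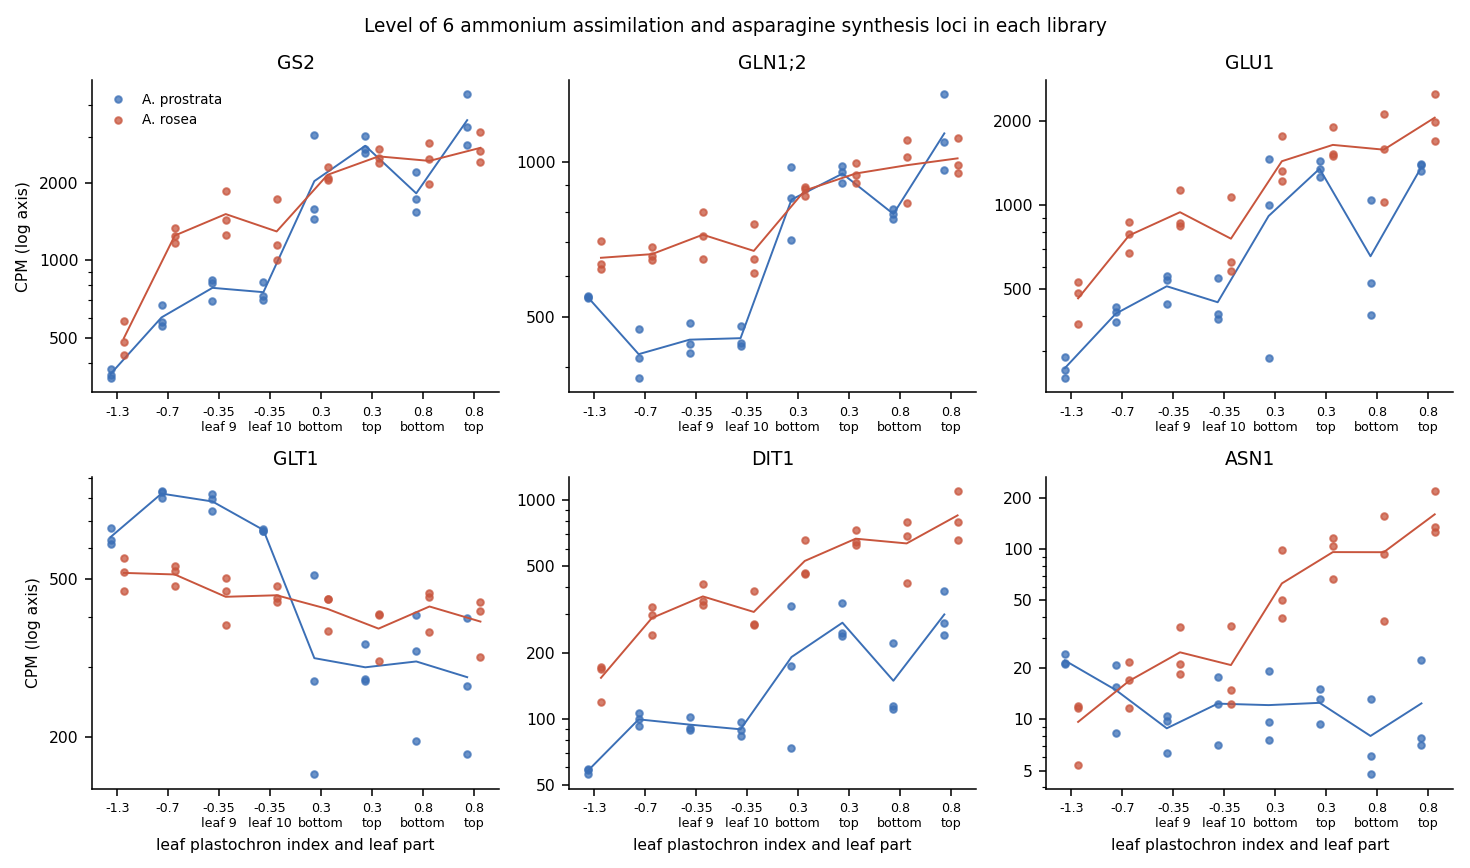
Level of each of the 6 loci in all 48 libraries, in CPM on a log axis, against leaf plastochron index and leaf part. Points are libraries, lines join the means of 3 libraries, blue is prostrata and red is rosea. In the DIT1 panel the rosea points lie above the prostrata points at all 8 stages, and in the ASN1 panel the species cross between index -1.3 and the older leaves.

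DIT1, the plastid 2-oxoglutarate and malate exchanger, had levels of 58.5, 55.7 and 59.3 CPM in the 1 mm leaves of prostrata and 120, 173 and 169 CPM in those of rosea. At index 0.8 the top parts held 383, 242 and 275 CPM in prostrata and 655, 1100 and 797 CPM in rosea. The 3 rosea libraries lay above the 3 prostrata libraries at each of the 8 stages. Of the 24 rosea libraries, 13 also lay above the highest of all 24 prostrata libraries, 383 CPM, whatever their age. How many of all loci tested behave in these ways was not counted. Over the stages the log2 fold change was 1.63 (SE 0.11, adjusted p = 6.86e-17, edgeR). Single stages gave log2 fold changes from 1.27 (SE 0.30, adjusted p = 0.000507, edgeR) in the top parts at index 0.3 to 2.09 (SE 0.31, adjusted p = 4.12e-07, edgeR) in the bottom parts at index 0.8, and all 8 were called. Without the 2 close libraries the bottom parts at index 0.3 gave 2.07 in place of 1.46 for DIT1, still called, and the mean over the stages gave 1.73.

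ASN1 encodes asparagine synthetase, and in Arabidopsis its transcript is known to accumulate in darkness and when sugar is short. In the 1 mm leaves its level was 21.1, 24.1 and 21.4 CPM in prostrata and 5.42, 12 and 11.6 CPM in rosea, so that the prostrata libraries were the higher ones and the groups did not overlap. At 5 mm the species overlapped, with 20.8, 15.6 and 8.27 CPM in prostrata and 11.7, 17 and 21.8 CPM in rosea. In the top parts at index 0.8 prostrata held 22.4, 7.79 and 7.08 CPM, and rosea held 126, 220 and 135 CPM. Here every rosea library was several times above every prostrata library, and 14 of the 24 rosea libraries lay above the highest prostrata library of any age, 24.1 CPM.

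The species difference in ASN1 changed sign along the leaf series. It was -1.19 on the log2 scale in 1 mm leaves (SE 0.48, adjusted p = 0.0459, edgeR), a call at the edge of the threshold that was lost without any single one of the 6 libraries, with DESeq2 (adjusted p = 0.0531) and with the replicate number in the model (adjusted p = 0.0603). It was 0.19 (SE 0.48, adjusted p = 0.764, edgeR) in 5 mm leaves and 0.75 (SE 0.48, adjusted p = 0.199, edgeR) in leaf 10 at index -0.35, neither of them called. Leaf 9 at the same index gave 1.49 (SE 0.49, adjusted p = 0.0109, edgeR), a call lost without replicate 2 of prostrata (1.29, adjusted p = 0.0559) or of rosea (1.19, adjusted p = 0.069). From index 0.3 on the difference was called in each leaf part, at 2.35 and 2.93 in the bottom and top parts at index 0.3 and at 3.57 and 3.72 at index 0.8. The last value, a 13.2-fold difference, had an SE of 0.51 and an adjusted p of 8.64e-08 (edgeR), and was 4.42 without replicate 1 of prostrata, the library at 22.4 CPM. Without the 2 close libraries the values at index 0.3 were 2.19 and 2.74, both called.

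**Figure D2:**
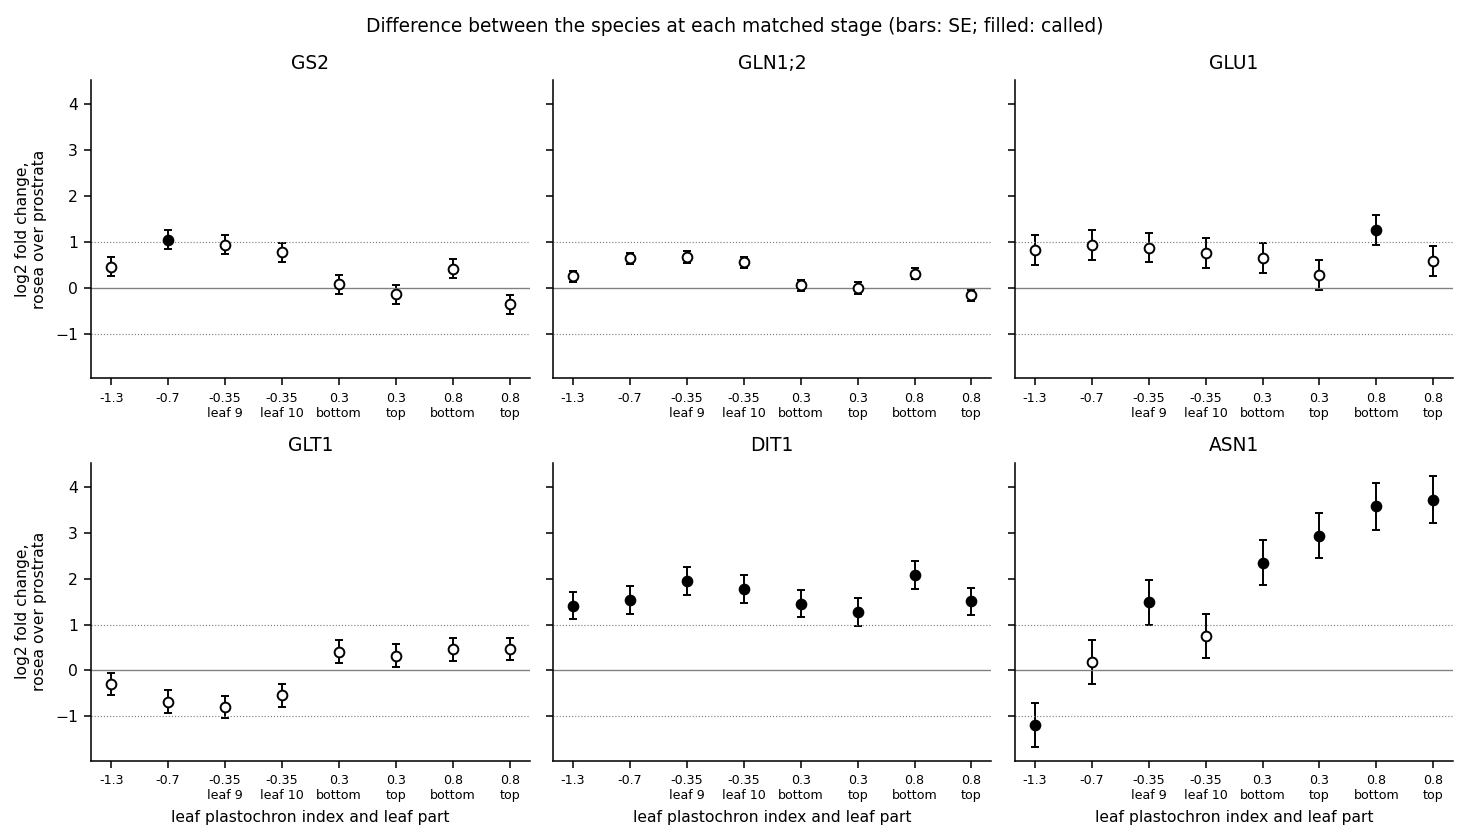
Log2 fold change of rosea over prostrata for each of the 6 loci at the 8 matched stages, with bars of 1 SE. Filled points are called and dotted lines mark a log2 fold change of 1 in either direction. DIT1 is filled at all 8 stages, from 1.27 to 2.09, and ASN1 climbs from -1.19 at index -1.3 to 3.72 in the top parts at index 0.8.

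Both glutamine synthetase loci were higher in rosea in undivided leaves, without overlap between the libraries, and overlapped between the species in most parts of older leaves. GS2, the plastid enzyme, held 575, 670 and 557 CPM in the 5 mm leaves of prostrata and 1240, 1170 and 1330 CPM in those of rosea, a difference of 1.05 on the log2 scale (SE 0.21, adjusted p = 7.32e-05, edgeR). This was its single call among the stages, and on library totals it was 0.89 and not called. In the 4 stages up to index -0.35 every rosea library was above every prostrata library for GS2. In the 4 groups of older leaf parts the species overlapped. In the bottom parts at index 0.3 prostrata held 3060, 1580 and 1440 CPM and rosea 2090, 2290 and 2050 CPM, so the overlap there rests on replicate 1 of prostrata, 1 of the 2 close libraries, and without both the difference was 0.48 (adjusted p = 0.0388, edgeR). In the top parts at index 0.8 prostrata held 4390, 3280 and 2800 CPM and rosea 2400, 3140 and 2640 CPM (log2 fold change -0.36, SE 0.21, adjusted p = 0.147, edgeR). Over the stages GS2 gave 0.41 (SE 0.07, adjusted p = 5.09e-06, edgeR), under the fold threshold. In leaf 9 GS2 was near that threshold, with 0.95 in all libraries and 1.02 or 1.07, called, without replicate 1 or 3 of rosea.

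GLN1;2, the cytosolic glutamine synthetase, held 474, 416 and 381 CPM in the 5 mm leaves of prostrata and 683, 645 and 658 CPM in those of rosea. Its libraries did not overlap between the species in 5 of the 8 stages, with rosea the higher, but no stage was called. The largest of its differences was 0.68 (SE 0.12, adjusted p = 1.75e-05, edgeR) in leaf 9, and the mean over the stages was 0.29 (SE 0.04, adjusted p = 1.01e-07, edgeR). In the top parts at index 0.3 the levels were 981, 954 and 909 CPM in prostrata and 995, 910 and 941 CPM in rosea, which overlap.

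The glutamate synthases went in different directions. GLU1, the ferredoxin-dependent enzyme, was higher in rosea without overlap in 6 of the 8 stages. In the 5 mm leaves it held 416, 431 and 381 CPM in prostrata and 791, 676 and 871 CPM in rosea, a difference of 0.93 on the log2 scale (SE 0.32, adjusted p = 0.0161, edgeR) that was 1.02 and called without replicate 2 of rosea. Its mean difference over the stages was 0.77 (SE 0.11, adjusted p = 1.08e-07, edgeR), under the fold threshold. GLU1 was called in the bottom parts at index 0.8 alone, where prostrata held 1040, 404 and 526 CPM and rosea 1590, 1030 and 2120 CPM (log2 fold change 1.27, SE 0.33, adjusted p = 0.0012, edgeR). These ranges touch at 1030 to 1040 CPM, and the call was lost by a fold just under the threshold without replicate 2 of prostrata (1.00) or replicate 3 of rosea (0.98). In the bottom parts at index 0.3 the prostrata libraries of GLU1 ran from 285 to 1460 CPM, the widest spread of any GLU1 group. The difference there was 0.65 (SE 0.32, adjusted p = 0.0852, edgeR), and 1.14 without the 2 close libraries, which was called (adjusted p = 0.0059).

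GLT1, the NADH-dependent glutamate synthase, had lower levels in the undivided leaves of rosea, by less than the fold threshold. In the 5 mm leaves it held 833, 828 and 800 CPM in prostrata and 538, 479 and 523 CPM in rosea. The rosea libraries lay below the prostrata libraries in all 4 groups of undivided leaves and overlapped with them in all 4 groups of leaf parts. No stage was called, and the fitted differences ran from -0.80 (SE 0.24, adjusted p = 0.00625, edgeR) in leaf 9 to 0.47 (SE 0.24, adjusted p = 0.103, edgeR) in the top parts at index 0.8. Over the stages they averaged -0.08 (SE 0.09, adjusted p = 0.38, edgeR).

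Counted by stage, 2 of the 6 members were called in 1 mm leaves, where 16.4% of all loci tested were called, 2 in 5 mm leaves (20.3%), 2 in leaf 9 (21.6%) and 1 in leaf 10 (19.7%). In the leaf parts 2 were called in the bottom at index 0.3 (23.5% of all loci), 2 in the top (21.9%), 3 in the bottom at index 0.8 (24.8%) and 2 in the top (25.4%). DIT1 accounts for 1 call at each stage. Groups of 3 against 3 libraries without overlap were common: they were found for 66% of all loci tested in 1 mm leaves, 67.6% in 5 mm leaves, 65.3% in leaf 9 and 60.2% in leaf 10. In the leaf parts the shares were 49.6% and 55.9% in bottom and top at index 0.3, and 53.5% and 56.8% at index 0.8. Separation of the libraries at a single stage is therefore no mark of these 6 loci. Separation at several or all stages, or from every library of the other species, was not counted over all loci tested. Nor was separation between ages or between leaf parts. For no locus named here can such a count be called unusual.

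The change with age was taken from 1 mm leaves to the mean of both leaf parts at index 0.8. GS2, DIT1 and GLU1 rose in both species, by 3.63-fold to 6.94-fold in prostrata and by 3.88-fold to 5.16-fold in rosea. ASN1 rose 12.7-fold in rosea and fell to 0.446 of its 1 mm level in prostrata. GLT1 fell in prostrata, and GLN1;2 passed the fold threshold in neither species.

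In prostrata 3 of the 6 members were called higher with age and 2 lower, where 23.5% of all loci tested were called, 15.2% higher and 8.28% lower. GS2 went from 359, 350 and 379 CPM in 1 mm leaves to 2190, 1720 and 1540 CPM in the bottom and 4390, 3280 and 2800 CPM in the top parts at index 0.8, which is 2.80 on the log2 scale (SE 0.21, adjusted p = 4.73e-14, edgeR). DIT1 gave 1.87 (SE 0.28, adjusted p = 4.72e-07, edgeR) and GLU1 gave 1.86 (SE 0.31, adjusted p = 2.23e-06, edgeR). GLT1 went the other way, from 613, 628 and 672 CPM in 1 mm leaves to 406, 195 and 329 CPM in the bottom and 181, 269 and 399 CPM in the top parts. All older GLT1 libraries were below all young ones, a separation not counted over all loci tested, and the log2 fold change was -1.11 (SE 0.20, adjusted p = 1.49e-05, edgeR). Without replicate 2 of the bottom parts or replicate 1 of the top parts at index 0.8 the GLT1 value was -0.95, short of the fold threshold. ASN1 gave -1.17 (SE 0.41, adjusted p = 0.0139, edgeR), but 1 of the 6 older libraries, at 22.4 CPM, was as high as the 1 mm leaves, and without replicate 3 of the top parts the value was -0.99 and not called. GLN1;2 gave 0.79 (SE 0.11, adjusted p = 8.3e-08, edgeR).

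In rosea 4 of the 6 members were called with age, all higher, where 25.2% of all loci tested were called, 15% higher and 10.3% lower. By an unadjusted p under 0.05 no member was lower either. ASN1 had the largest change of the 6, 3.67 on the log2 scale (SE 0.47, adjusted p = 1.86e-08, edgeR), from 5.42, 12 and 11.6 CPM to 94.3, 37.9 and 156 CPM in the bottom parts and 126, 220 and 135 CPM in the top parts. Even the lowest older library was above every 1 mm library, but how many of all loci tested separate by age in this way was not counted. GS2 gave 2.37 (SE 0.20, adjusted p = 1.68e-12, edgeR), DIT1 gave 2.25 (SE 0.29, adjusted p = 1.21e-08, edgeR) and GLU1 gave 1.96 (SE 0.31, adjusted p = 8.57e-07, edgeR). GLN1;2 gave 0.62 (SE 0.11, adjusted p = 5.9e-06, edgeR) and GLT1 gave -0.34 (SE 0.21, adjusted p = 0.152, edgeR). On library totals, which move the median of all loci from -0.07 to -0.75 here, GLN1;2 gave -0.08 and GLT1 gave -1.03, the latter called. So the direction of GLN1;2 with age in rosea depends on the scaling.

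The markers of green tissue moved with these changes. Their summed level went from 3760 to 4010 CPM in the 1 mm leaves of prostrata to 63300 to 103000 CPM in its top parts at index 0.8, and from 4250 to 5580 CPM to 25200 to 39900 CPM in rosea. Of these 4 markers RBCS1A alone was called in the difference of the age changes, at -2.164 to -1.904 without single libraries. Of all loci tested, 10.9% were called in that difference. Meristem markers moved the other way: the sum of STM, KNAT1, WUS and CLV3 was 50.3 to 53.4 CPM in the 1 mm leaves of prostrata and 36.8 to 48 CPM in those of rosea, against at most 5.75 CPM in any library at index 0.8, with CLV3 at 0 in every library. STM overlapped between the species at all 8 stages, and the rosea libraries of KNAT1 lay below at all 8. Without single libraries KNAT1 gave -4.362 to -4.042 over the stages, called lower as were 10.3% of all loci tested. In the difference of the age changes KNAT1 was called at -5.432 to -4.187. The sum of 8 vascular markers went from 368 to 377 CPM to 523 to 627 CPM in the prostrata top parts, and from 328 to 359 CPM to 718 to 865 CPM in those of rosea. Of these 8 markers, 5 were called higher with age in prostrata and 6 in rosea, where 15.2% and 15% of all loci tested were. The part of any of these in the change of the 6 loci with age was not tested.

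The test of the difference between the age changes called 1 of the 6 members, ASN1, at 4.83 on the log2 scale (SE 0.61, adjusted p = 1.97e-07, edgeR), where 10.9% of all loci tested were called and 4.51% higher. The value stayed between 4.55 and 5.18 in the 25 alternatives run, all called. GLT1 was next with 0.76 (SE 0.30, adjusted p = 0.0556, edgeR). GS2 gave -0.43 (SE 0.26, adjusted p = 0.222, edgeR), DIT1 0.38 (SE 0.36, adjusted p = 0.469, edgeR), GLN1;2 -0.18 (SE 0.15, adjusted p = 0.417, edgeR) and GLU1 0.10 (SE 0.39, adjusted p = 0.891, edgeR), none of them called. For DIT1 the higher level in rosea was thus present in 1 mm leaves, and no difference in its age change was detectable beyond this error.

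**Figure D3:**
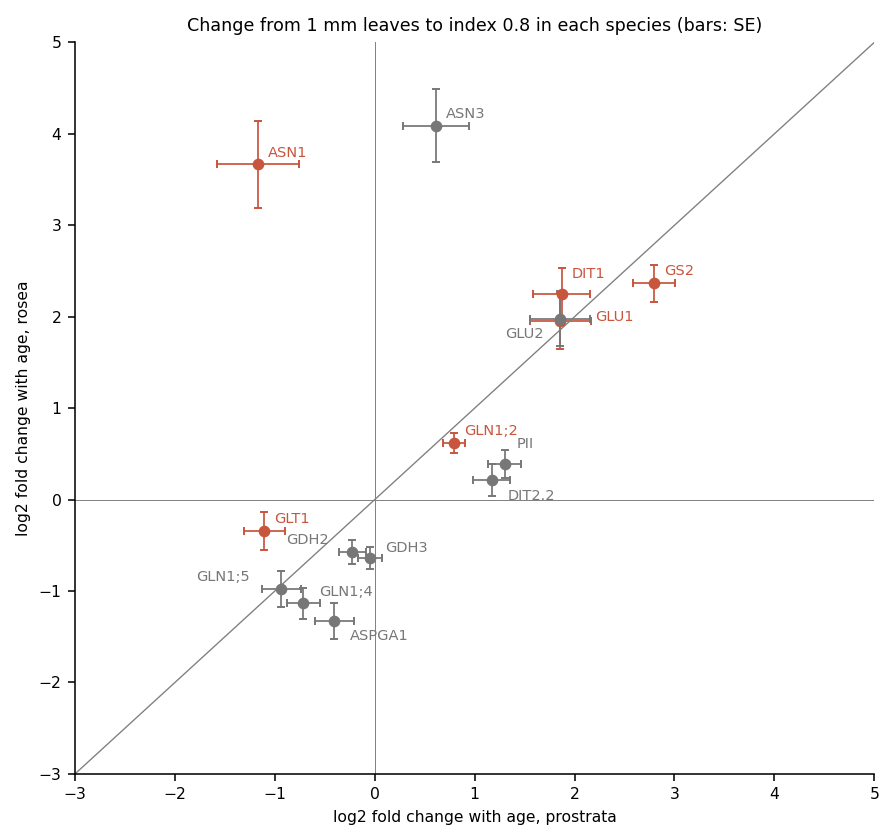
Log2 fold change from 1 mm leaves to index 0.8 in rosea against that in prostrata, with bars of 1 SE, for the 6 loci (red) and 9 of the other ammonium and asparagine loci (grey). ASPGB1 is not drawn, because its prostrata groups held as few as 2 counts. GS2, DIT1 and GLU1 lie near the line of equal change, while ASN1 (-1.17 in prostrata, 3.67 in rosea) and ASN3 (0.61 and 4.09) lie far above it.

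Over the 8 group means of a species, GS2, GLU1 and DIT1 went together, with Pearson correlations of log2 CPM from 0.98 to 0.99 in prostrata and from 0.97 to 1.00 in rosea. ASN1 followed these 3 in rosea, with 0.92 to 0.98, and not in prostrata, with -0.49 to -0.37. GLT1 went against them, with -0.90 to -0.83 in prostrata and -0.91 to -0.87 in rosea. These values describe 8 groups that share the species and the course of age, in which most leaf genes rise or fall. Among 9199 loci of at least 10 CPM and over all 16 groups, the nearest to GS2 were AT4G29590, a methyltransferase family protein (0.997), and AT2G38270, CAX-interacting protein 2 (0.994). DIT1 was nearest to AT3G54660, a glutathione reductase (0.995), and AT4G31780, monogalactosyl diacylglycerol synthase 1 (0.994). GLU1 was nearest to GLU2 and to AT5G42390, a peptidase family M16 protein (0.992). For GLT1 they were AT3G66658, aldehyde dehydrogenase 22A1 (0.970), and AT4G28100 (0.968). For GLN1;2 they were AT2G04160, a subtilisin-like endopeptidase (0.965), and AT5G49730, ferric reduction oxidase 6 (0.963). ASN1 had the least close neighbours, AT1G15240, a sorting nexin domain protein (0.955), and AT5G50210, quinolinate synthase (0.951).

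Reads of 1 Atriplex gene may be spread over several Arabidopsis paralogs, so the relatives of each member were followed too. ASN3 (AT5G10240), the other asparagine synthetase in the table, showed the larger change in counts. It held 136, 136 and 139 CPM in the 1 mm leaves of prostrata and 163, 275 and 378 CPM in those of rosea. In the top parts at index 0.8 it held 272, 242 and 205 CPM in prostrata and 4560, 8120 and 4970 CPM in rosea. The rosea libraries were above the prostrata libraries at all 8 stages, and 23 of 24 were above the highest prostrata library of any age. The log2 fold change of ASN3 was 2.96 (SE 0.14, adjusted p = 2.27e-21, edgeR) over the stages and 4.09 (SE 0.40, adjusted p = 3.02e-11, edgeR) with age in rosea. In prostrata it was 0.61 with age (SE 0.33, adjusted p = 0.101, edgeR), and the difference between these age changes was called.

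ASN1 and ASN3 went together in rosea. In that species the mean share of ASN1 in the counts of both loci, not corrected for gene length, was 2.54% to 3.46% over the groups and 2.28% to 4.19% over the libraries, and the correlation of their log2 CPM over the 24 libraries was 0.99. In prostrata the ASN1 share was 13.9% ± 0.94 (SD, n = 3) in 1 mm leaves and between 3.97% and 7.34% in the other groups, with 2.87% to 15% over the libraries, and the correlation over the 24 libraries was -0.01. A single asparagine synthetase gene whose reads fall on both loci and a pair of genes that change together cannot be told apart in these counts. The sum of both loci went from 159 ± 2.33 CPM (SD, n = 3) in 1 mm leaves to 252 ± 41.1 CPM in the top parts at index 0.8 in prostrata, and from 282 ± 110 to 6040 ± 2000 CPM in rosea.

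**Figure D4:**
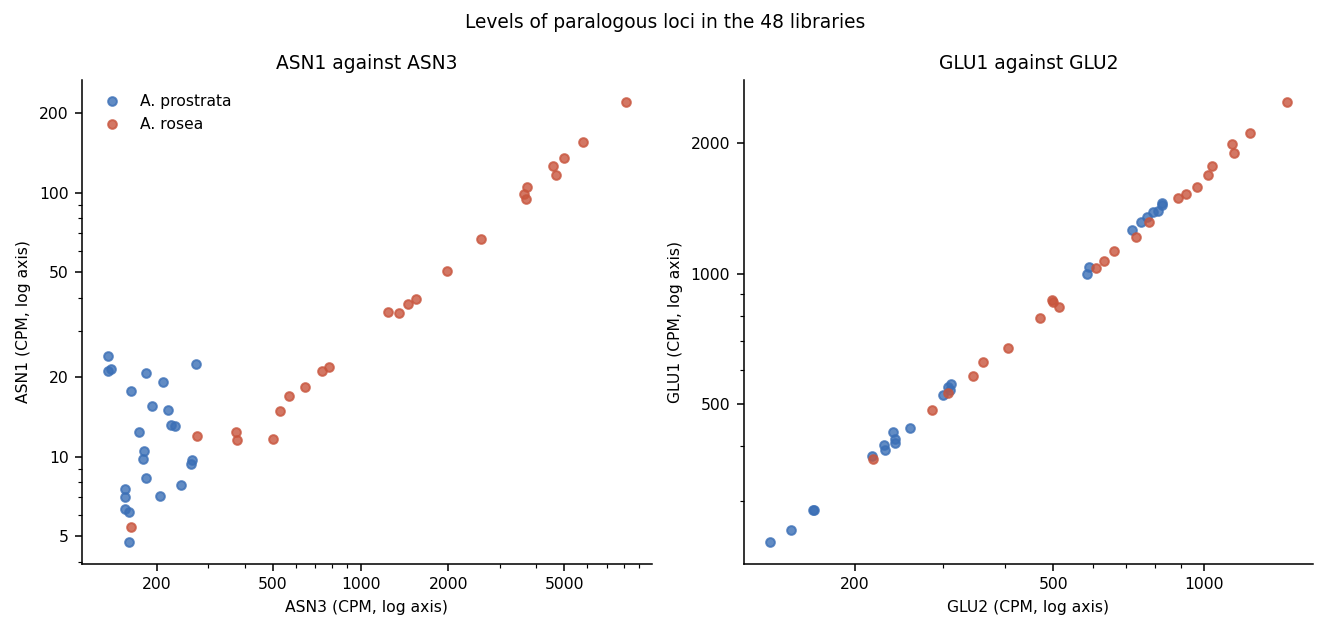
Level of ASN1 against ASN3 (left) and of GLU1 against GLU2 (right) in the 48 libraries, in CPM on log axes, 1 point per library. The rosea points of ASN1 and ASN3 lie on a line (correlation 0.99) while those of prostrata do not (-0.01), and GLU1 and GLU2 lie on 1 line in both species.

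GLU1 and GLU2 (AT2G41220), which both encode ferredoxin-dependent glutamate synthase, had a correlation of 1.00 over the 24 libraries of either species. GLU1 made up 62.8% to 64.4% of their counts in prostrata and 62.1% to 63.7% in rosea. Their values are therefore not independent. GLN1;4 and GLN1;5, which like GLN1;2 encode cytosolic glutamine synthetase, went together too (0.99 in prostrata, 0.97 in rosea) and against GLN1;2 (-0.30 and -0.36 in prostrata, -0.71 and -0.61 in rosea). GLN1;4 was called lower with age in rosea, at -1.14 (SE 0.17, adjusted p = 1.93e-07, edgeR), from 264, 218 and 210 CPM in 1 mm leaves to 98.6, 83.4 and 87.6 CPM in the top parts. In prostrata it gave -0.72 (SE 0.17, adjusted p = 0.000344, edgeR), under the fold threshold.

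DIT2.2 (AT5G64280), the relative of DIT1 that exchanges glutamate and malate, did not share the species difference of DIT1. It gave -0.05 over the stages (SE 0.07, adjusted p = 0.511, edgeR) and ranged from 31.6 to 107 CPM in prostrata and from 41.6 to 77.8 CPM in rosea. With age DIT2.2 rose in prostrata, by 1.17 (SE 0.19, adjusted p = 1.34e-06, edgeR), and gave 0.21 (SE 0.18, adjusted p = 0.307, edgeR) in rosea. The difference of these age changes, -0.96 (SE 0.25, adjusted p = 0.0042, edgeR), was just under the fold threshold.

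Of the 10 other ammonium and asparagine loci tested, 2 were called over the stages, both higher, with a median of 0.11 over the list. Of all loci tested, 19.9% were called over the stages, 9.61% higher and 10.3% lower. At an unadjusted p under 0.05 the one lower locus of the 10 was ASPGA1, an asparaginase, at -0.26 (SE 0.08, adjusted p = 0.00468, edgeR). The called loci were ASN3 and ASPGB1 (AT3G16150), also an asparaginase, an enzyme that releases ammonium from asparagine. ASPGB1 held 72.8 to 205 CPM in the rosea libraries and 0 to 1.18 CPM in those of prostrata, where the groups of 3 libraries held 2 to 33 counts each. With age, 3 of the 10 were called higher and 1 lower in prostrata, and 2 higher and 2 lower in rosea. Over all loci tested, 15.2% were called higher and 8.28% lower with age in prostrata, and 15% and 10.3% in rosea. PII, a nitrogen sensor of the plastid, rose in prostrata (1.30, SE 0.16, adjusted p = 8.52e-09, edgeR), and ASPGA1 fell in rosea (-1.33, SE 0.19, adjusted p = 2.07e-07, edgeR). The glutamate dehydrogenases GDH2 and GDH3 were not called in either species.

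Most loci of nitrate and ammonium uptake and reduction rose with age in both species. Of the 6 tested, 5 were called higher with age in prostrata and 4 in rosea, where 15.2% and 15% of all loci tested were. NIR1, nitrite reductase, rose by 2.19 (SE 0.22, adjusted p = 5.27e-11, edgeR) in prostrata and by 2.15 (SE 0.22, adjusted p = 6.65e-11, edgeR) in rosea. The nitrate reductases NIA1 and NIA2 rose by 1.32 and 1.37 in prostrata and by 1.13 and 1.08 in rosea, where NIA2 gave 0.97, not called, without replicate 1 of the 1 mm leaves. On library totals neither was called, with 0.76 and 0.81 in prostrata and 0.45 and 0.40 in rosea. Over the stages 2 of the 6 were called lower in rosea, both ammonium transporters, where 10.3% of all loci tested were called lower. AMT1;2 gave -1.42 (SE 0.11, adjusted p = 1.16e-14, edgeR) and its age changes differed by -2.09 (SE 0.38, adjusted p = 6.55e-05, edgeR), while AMT2 held at most 0.57 CPM in any rosea library and 0.354 to 13.9 CPM in prostrata. NRT1.1, a nitrate transporter, rose in rosea by 1.97 (SE 0.21, adjusted p = 4.03e-10, edgeR), and its age changes differed by 1.16 (SE 0.28, adjusted p = 0.00222, edgeR), which was 0.95 and not called without replicate 3 of the rosea bottom parts at index 0.8.

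Of 5 tested loci of the photorespiratory step that releases ammonium, 4 were called higher with age in each species, namely GLDP2, GLDT and GLDH3 of glycine decarboxylase and SHM1, serine hydroxymethyltransferase. Of all loci tested, 15.2% were called higher with age in prostrata and 15% in rosea. The log2 fold changes of these 4 ran from 1.32 to 2.92 in prostrata and from 1.57 to 2.28 in rosea. The differences in age change of the 5 lay between -0.64 for GLDH3 (adjusted p = 0.0654, edgeR) and 0.52 for GLDH2 (adjusted p = 0.09, edgeR), under the fold threshold. Over the stages GLDH2 was called higher in rosea, at 2.22 (SE 0.07, adjusted p = 2.49e-27, edgeR). GLDP2 and GLDH3 gave -0.69 (SE 0.11, adjusted p = 2.89e-07, edgeR) and -0.70 (SE 0.08, adjusted p = 8.37e-11, edgeR), below the fold threshold. At single stages GLDH3 was called lower in rosea bottom parts at index 0.3 and in top parts at index 0.3 and 0.8. GLDP2 was called lower in the top parts at index 0.3. Without single libraries GLDH3 ran from -1.561 to -1.148, -1.207 to -1.017 and -1.402 to -1.035 there, and GLDP2 from -1.398 to -1.26. GLDH2 was called higher at every stage. GLDT was called higher in 5 mm leaves, at 0.968 to 1.066 without single libraries.

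Aspartate, the second substrate of asparagine synthetase, is made by aspartate aminotransferases, which also carry carbon in C4 leaves that use NAD-malic enzyme. Of these 5 loci 4 were called higher in rosea over the stages, ASP1 to ASP4, by 3.78 to 4.41 on the log2 scale. Of all loci tested, 9.61% were called higher over the stages. ASP1 to ASP4 were also called in the difference of the age changes, by 3.28 to 4.51, where 4.51% of all loci tested were called higher. ASN1 gave 4.83 there, and a link between these loci and ASN1 was not tested. In rosea the lowest and highest group means were 104 and 2110 CPM for ASP2, 150 and 2750 CPM for ASP3, and 54.8 and 1160 CPM for ASP4. For each these were the 1 mm leaves and the top parts at index 0.8. Whether these loci share reads was not tested, so they may not be independent. ASP5 gave -0.72 (SE 0.05, adjusted p = 1.24e-15, edgeR) over the stages.

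Markers of darkness and sugar shortage and of senescence were followed beside ASN1. Of 7 tested loci known to rise in dark or low-sugar conditions in Arabidopsis or to encode bZIP factors of that response, 1 was called higher over the stages, BCAT1 at 2.54 (SE 0.06, adjusted p = 2.48e-32, edgeR), and 1 lower, MCCA at -1.07 (SE 0.06, adjusted p = 2.2e-19, edgeR), against 9.61% and 10.3% of all loci tested. In the difference of the age changes 2 were called, DIN10 at 2.25 (SE 0.25, adjusted p = 1.12e-08, edgeR) and BCAT1 at 1.38 (SE 0.19, adjusted p = 8.92e-07, edgeR). Of all loci tested, 4.51% were called higher in that difference. The summed level of the 8 loci of this list in the table was 123 to 203 CPM in prostrata and 158 to 233 CPM in rosea, with bZIP1 at 0 in most libraries. Of the senescence markers SAG12 and NAP, both were called higher in rosea over the stages (1.92 and 1.29), and their sum was 0.881 to 5.54 CPM in prostrata and 5.34 to 12 CPM in rosea. With age in rosea SAG12 gave 0.09 (adjusted p = 0.751, edgeR) and NAP 0.45 (adjusted p = 0.16, edgeR), neither called. With age in prostrata NAP was called lower, at -1.202 to -0.826 without single libraries, a call lost in 4 of these 9 fits. In the difference of the age changes 1 of the 2 was called, NAP, higher at 1.308 to 1.657 without single libraries. Of all loci tested, 8.28% were called lower with age in prostrata. NAP held at most 2.77 CPM in prostrata and 3.51 CPM in rosea. The sum of SAG12 and NAP was 8.45 to 9.48 CPM in the 1 mm leaves of rosea and 8.33 to 12 CPM in its top parts at index 0.8. SAG12 weighs most in this sum, with a mean of 6.4 CPM over the rosea libraries against 2.1 CPM for NAP. The part of these markers in the ASN1 values was not tested.

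Within leaves at index 0.3 and 0.8, no member was called between the top and the bottom part. The test took the parts as independent groups, without pairing, so a missing call does not show that the parts are alike. In prostrata 0 of 6 were called, where 1.22% of all loci tested were, and in rosea 0 of 6 against 0.582%; DESeq2 called 0 in either as well. At an unadjusted p under 0.05, 4 of the 6 were higher in the top of prostrata leaves, and these also had adjusted p-values under 0.05, as did 2079 of all loci tested. GLU1 gave 0.81 (SE 0.23, adjusted p = 0.015, edgeR), DIT1 0.76 (SE 0.21, adjusted p = 0.0129, edgeR), GS2 0.70 (SE 0.15, adjusted p = 0.00204, edgeR) and GLN1;2 0.34 (SE 0.09, adjusted p = 0.00678, edgeR). In prostrata leaves at index 0.8 the GLU1 libraries of both parts did not overlap, with 1040, 404 and 526 CPM in the bottom and 1320, 1400 and 1390 CPM in the top. Without the 2 close libraries GLU1 gave 1.04 (adjusted p = 0.00217, edgeR) and was called, DIT1 gave 0.98 and GS2 gave 0.87. Leaving out replicate 1 of the 15 mm bottom parts alone gave 1.06 for GLU1 and 1.07 for DIT1, both called, and leaving out replicate 1 of the 18 mm bottom parts gave 1.06 for GLU1, called.

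In rosea the largest value between the parts was that of ASN1, 0.68 (SE 0.31, adjusted p = 0.209, edgeR), the single member with an unadjusted p under 0.05. Its bottom parts at index 0.8 ran from 37.9 to 156 CPM and its top parts from 126 to 220 CPM, which overlap. The difference between the species in the contrast of the parts called 0 of the 6 members with edgeR and with DESeq2, where 0.115% of all loci tested were called. GS2 (-0.49, adjusted p = 0.383, and -0.67, adjusted p = 0.0723, without the 2 close libraries, edgeR) and GLN1;2 (-0.27, adjusted p = 0.428, edgeR) had unadjusted p-values under 0.05. In the bottom parts of prostrata leaves at index 0.3, replicate 3 was the lowest library for GLU1 (285 CPM), DIT1 (73.9 CPM) and GS2 (1440 CPM). RBCS1A, the main part of the sum of green markers, was lowest in replicate 2, at 16800 CPM against 44400 CPM in replicate 1 and 41900 CPM in replicate 3. For PRK, another green marker, deviations from the group mean were compared with those of the members over the 24 prostrata libraries. The correlations were 0.91 for GS2, 0.72 for DIT1 and for GLN1;2, 0.59 for GLU1, 0.42 for ASN1 and -0.13 for GLT1. Over the 24 rosea libraries they were 0.93 for GS2 and for ASN1, 0.96 for GLU1, 0.90 for DIT1, 0.80 for GLN1;2 and 0.09 for GLT1. The other green markers were not compared in this way. The part of green tissue in these replicate differences was not tested.

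**Figure D5:**
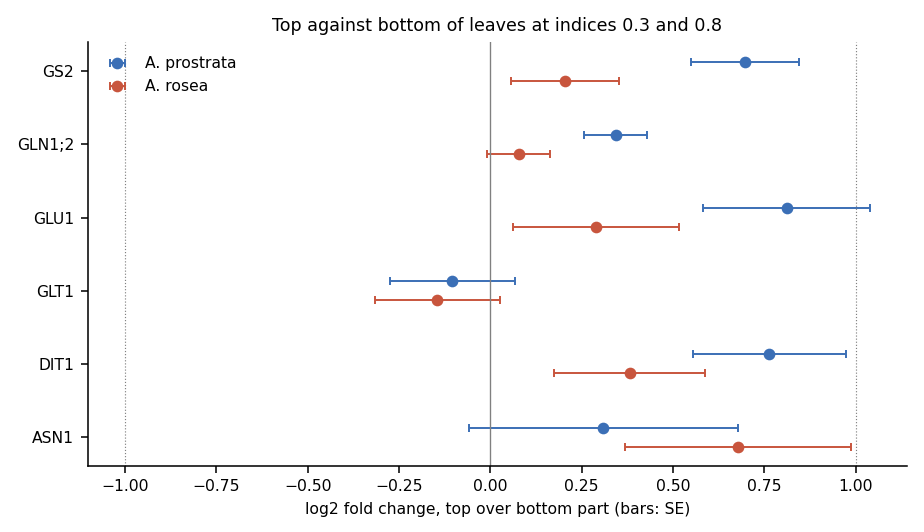
Log2 fold change of the top over the bottom part, mean of leaves at index 0.3 and 0.8, for each of the 6 loci, with bars of 1 SE, in prostrata (blue) and rosea (red). Dotted lines mark a log2 fold change of 1 in either direction. All values lie between them, with GLU1 in prostrata the highest at 0.81.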

How the data were processed

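RNA was sequenced on an Illumina platform, and the authors deposited 1 table with a raw read count per library for each Arabidopsis locus. The submitters' processing notes name CASAVA, DESeq2 and the TAIR10 genome release. Which aligner and counter made the table is not given in the sources used here. Of 60 count columns, 42 matched a single labelled sample, 6 of leaf 9 matched only their group and 12 were not used. Replicate numbers of leaf 9 are those of the columns. The table lists 21976 loci, of which 5 whose values had moved out of their columns were left out. Groups came from the labels; per the series' design text replicates are biological triplicates, without a statement on plants, so the spread behind each p-value may be technical.

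A model with 1 mean for each of the 16 groups was fitted to the 48 libraries with edgeR 4.0.16 in R 4.3.3. Libraries were scaled by TMM, and edgeR's filter on low counts kept 14779 loci. Contrasts were tested with the quasi-likelihood F test, with Benjamini-Hochberg adjustment over all loci tested. Each SE was taken as the size of the log2 fold change over the root of its F value. The biological coefficient of variation was 15.7%, with 32 residual degrees of freedom. The procedure was tested on simulated data. Alternatives were DESeq2 1.42.0, its size factors, library totals, no filter, no fold threshold, the libraries compared alone, the replicate number as a block, and leaving out libraries.

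The members, the gene lists and the tests were chosen with earlier results of these data known. All members are named. Of the other lists, loci called over the stages or with age are named in part, at most 4 a list and comparison. The vascular markers are given only as a sum and as counts of calls. The other loci named with values that were not called (GLN1;4 and GLN1;5 in prostrata, ASP5, GLDP2, GLDH2, ASPGA1, GDH2 and GDH3) were added after their values were seen. Of the tested loci, 65 share their counts with another locus in every library, none of them named here.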

Additional observations from a re-analysis of the deposited data

Results flagged for a closer look

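The change with age of ASN1 differed between the species by 4.83 on the log2 scale (SE 0.61, adjusted p = 1.97e-07, edgeR), and so did that of ASN3, by 3.47 (adjusted p = 6.46e-07, edgeR). Both were singled out because the test of the difference itself passed the threshold. Among the members and the other ammonium and asparagine loci ASPGB1 passed it too, but its prostrata groups held 2 to 33 counts, so that its fitted fold depends on the prior count and is not given. In rosea all 6 libraries at index 0.8 were above all 3 libraries of 1 mm leaves for ASN1, and in prostrata 5 of the 6 were below. The share of all loci tested with such a separation by age was not counted. Since these loci may share reads, they are not independent of each other.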

How the results depend on the processing

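Among the 90 results of the members, 1640 of 1698 values under the alternatives kept their direction and their side of the threshold, 16 lost a call, 10 gained one and 32 changed sign; the cause was not tested. Among the other listed loci 75 of 3579 values lost a call and none changed sign. Every value that changed sign belonged to a result that was not called. By the rule used, that every same-numbered pair of libraries correlates above 0.1, the replicate numbers were not taken to pair the samples: same-numbered libraries had correlations of their deviations from -0.22 to 0.13 between the species, from -0.48 to 0.43 between leaf parts and from -0.06 to 0.25 between ages. The bottom and top parts of the 18 mm prostrata leaves did meet it, at 0.21, 0.35 and 0.43, 1 of 4 such pairs of groups, and leaf 9 was not part of the check. With the replicate number as a block (without leaf 9), GLT1 over the stages gave 0.02, and 1 member was called in 1 mm leaves in place of 2, as with DESeq2.

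Without a fold threshold the members called rose to 5 over the stages, 5 in 5 mm leaves, 6 in leaf 9, 4 in leaf 10 and 4 between the parts of prostrata leaves, where 11925, 7375, 7660, 7301 and 2079 of all 14779 loci passed, in that order. The calls over all loci rose from 2936 to 11925 over the stages, from 3467 to 9099 with age in prostrata, from 3728 to 8916 with age in rosea, and from 1610 to 3721 in the difference of the age changes. With library totals 1 member was called in 5 mm leaves, 6251 loci were called with age in rosea, and GLN1;2 gave 0 and -0.148 in the bottom and top parts at index 0.3, -0.075 with age in rosea and -0.059 between its leaf parts. GLU1 gave -0.066 there in the difference of the age changes. The median of all loci then shifted to -0.581 and -0.751 with age in prostrata and rosea, and to -0.168 over the stages. GLN1;2 in the top parts at index 0.3 gave -0.019 without the filter, -0.014 with the libraries compared alone and -0.001 without the 2 close libraries, where 1 member was called between the parts of prostrata leaves.

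Leaving out single libraries, 1 member was called in 1 mm leaves in each case, 1 to 3 in leaf 9, and 0 to 2 between the parts of prostrata leaves. The results that changed sign then ranged as follows. Between the species ASN1 ran from -0.102 to 0.511 in 5 mm leaves, GLN1;2 from -0.055 to 0.157 and GS2 from -0.119 to 0.483 in the bottom parts at index 0.3, and GLN1;2 from -0.055 to 0.012 in the top parts. GLU1 ran from -0.043 to 0.342 in the difference of the age changes. Between the parts of prostrata leaves ASN1 ran from -0.047 to 0.575 and GLT1 from -0.282 to 0.163, and the species difference of GLT1 there from -0.308 to 0.131.

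Between leaf parts the calls over all loci were few and unstable: 180 in prostrata, 98 to 338 without 1 library and 2 with its own libraries alone, and 86 in rosea, 31 to 199 and 17.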
